A study of Mus musculus with 3 samples.

Results

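The genes described here encode the route of glucose carbon through the cell. They cover glucose transporters, the enzymes of glycolysis, lactate dehydrogenases, and lactate and pyruvate carriers. Also covered are the pyruvate dehydrogenase E1 subunits with their kinases, and enzymes of both branches of the pentose phosphate pathway. All these genes were chosen by gene name, as members of the pathway: 42 genes of the 55536 annotated genes in the first deposited gene table (22028 of these are protein-coding). All 42 names were found. The name Aldoa belongs to 2 annotated genes on chromosome 7, and the one used here is the well-expressed gene, since the other (ENSMUSG00000114515.2) had 4, 0 and 0 counts.

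The RNA came from regulatory T cells labelled as inflammation-experienced, taken as primary cells and labelled with 1 donor, an adult male mouse of 16 weeks. The strain is written as Foxp3GFP-DTRCD4CreERT2R26tdTomato, a name that joins a reporter and toxin receptor at Foxp3, an inducible Cre driven by Cd4 and a red reporter; the sources used here do not state the agents given to the mouse, the inflammatory stimulus or the sort gate. PolyA-selected RNA was sequenced in 3 libraries, which the labels number as technical replicates 1 to 3 of 1 biological replicate. There was 1 group and no untreated or resting sample, so every SD and p below measures the spread between libraries of the same cells, not between animals.

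Glycolysis splits glucose into pyruvate with a small yield of ATP. Pyruvate is either reduced to lactate and exported or carried into mitochondria, where pyruvate dehydrogenase turns it into acetyl-CoA; pyruvate dehydrogenase kinases switch that enzyme off. Activated T cells are known for raising glucose uptake and lactate output, whereas regulatory T cells are known for relying more on mitochondrial oxidation, with glycolysis linked to their proliferation and migration. Many steps have several paralogs with different kinetics and tissue distributions, and the comparison of these paralogs is the main question that one group of libraries can answer.

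The chemistry of the last step differs by splicing. Pkm, pyruvate kinase of muscle and most other tissues, uses 1 of 2 mutually exclusive exons, and the exon decides between the constitutively active M1 enzyme and the allosterically regulated M2 enzyme, the form known from proliferating cells. Both exons are shown because the transcript result below sorts transcripts by the exon they hold. They lie on the plus strand of chromosome 9 (mm10), the M1 exon at chr9:59675029-59675195 and the M2 exon at chr9:59675568-59675734, and each is exon 9 of its transcript in GENCODE M21 (Pkm-202 and Pkm-201). Each is coding and 167 bases long, and capitals mark the 64 positions at which they differ; the other 103 positions (61.7%) are identical.
M1 exon: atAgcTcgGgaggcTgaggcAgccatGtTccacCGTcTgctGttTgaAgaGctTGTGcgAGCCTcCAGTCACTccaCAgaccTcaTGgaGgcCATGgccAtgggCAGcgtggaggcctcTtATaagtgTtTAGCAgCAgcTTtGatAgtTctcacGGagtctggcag
M2 exon: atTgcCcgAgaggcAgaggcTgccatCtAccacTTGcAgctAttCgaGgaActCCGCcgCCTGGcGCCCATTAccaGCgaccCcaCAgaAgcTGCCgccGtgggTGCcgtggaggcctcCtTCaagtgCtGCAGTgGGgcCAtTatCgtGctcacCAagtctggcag

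Transcripts with the M2 exon held 91.4%, 91.5% and 90.5% of all Pkm TPM in libraries 1, 2 and 3 (TPM is abundance as a share of all transcripts, scaled for transcript length and depth). Transcripts with the M1 exon held 6.25%, 5.79% and 6.38%. The M2 share was therefore 91.1% ± 0.55 and the M1 share 6.14% ± 0.31 (SD, n = 3 libraries), and the ranges of the libraries lay far apart. The M2-to-M1 ratio was 14.9 ± 0.83. Transcripts with neither exon whole held 2.72% ± 0.41, mostly a retained-intron transcript. Of the 1992 stretches of 50 bases in Pkm-202, 204 were absent from Pkm-201, so a limited part of the sequence separates the forms. Of the 2383 stretches in Pkm-201, 595 were absent from Pkm-202. Pkm-201 is the longer transcript (2432 against 2041 bases), and not all of these 595 lie at the exon. Among factors known to act on this splicing choice, Hnrnpa2b1 stood at 1407 ± 153 TPM, Srsf3 at 476 ± 55.2 TPM and Ptbp1 at 299 ± 14.5 TPM; their part in the M2 share was not tested.

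Of the 42 genes, 41 reached 1 TPM in every library, all but Pdk4; over all protein-coding genes the share was 47.4%. At 100 TPM or more in every library stood 15 of the 42, against 6.63% of protein-coding genes. Their median level was 79.3, 68.6 and 62.7 TPM in libraries 1, 2 and 3, a mean of 70.2 ± 8.42 TPM, while the median over detected protein-coding genes was 25.6 ± 3.29 TPM. Together the genes held 0.636% ± 0.028 of all TPM. Ldha, Eno1, Pkm and Aldoa held 51.2% ± 1.97 of that sum. Fewer expressing cells and less RNA per cell cannot be told apart in such bulk libraries.

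**Figure D1:**
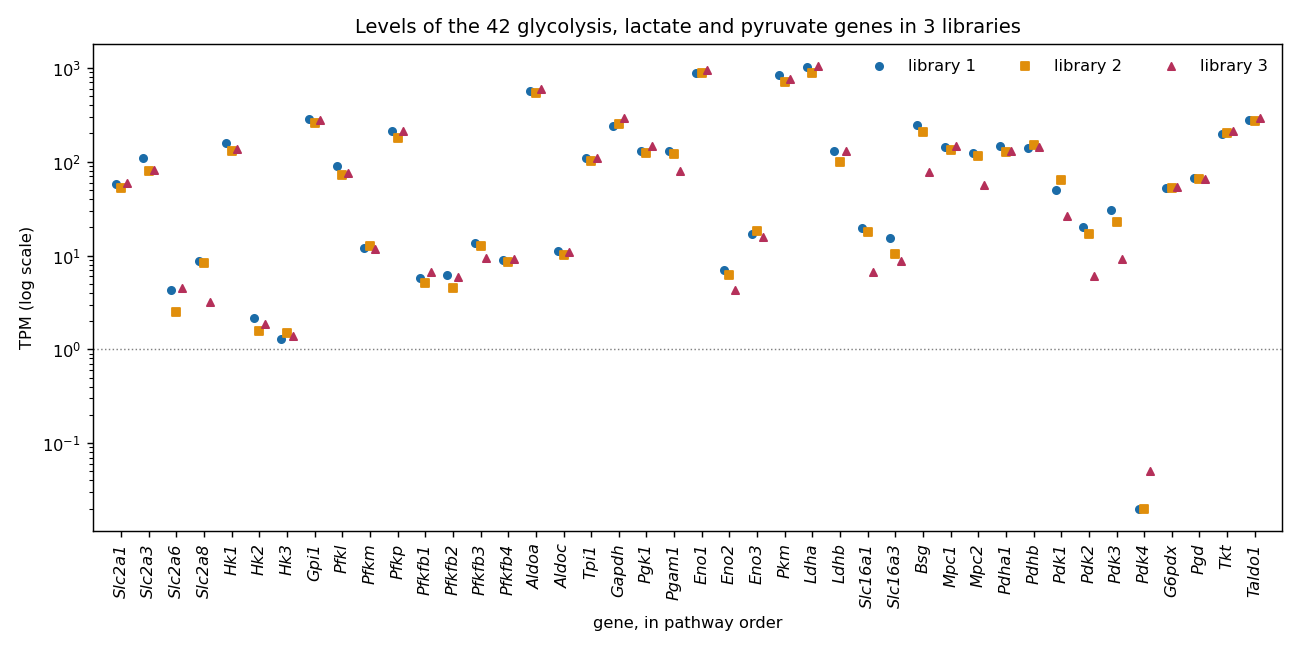
TPM (log axis) of each of the 42 genes in pathway order, with a marker for each library and a dotted line at 1 TPM. Ldha, Eno1, Pkm and Aldoa lie above the other genes in all libraries, Pdk4 lies below 0.1 TPM, and the red triangles of library 3 sit apart for Slc2a8, Slc16a1, Bsg, Mpc2 and Pdk1 to Pdk3.

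A pair of genes held most of the glucose transporter RNA. Slc2a3, which encodes the high-affinity neuronal and leukocyte transporter GLUT3, stood at 110, 80.6 and 80.9 TPM. Slc2a1, encoding the widely expressed GLUT1, stood at 57.2, 52.9 and 59.8 TPM. Slc2a3 was higher in each library, with 57.1% ± 3.41 of the TPM of the 4 transporters against 36.3% ± 4.27, but the log2 ratio of Slc2a1 to Slc2a3 was -0.65 ± 0.25 and did not reach the size required to call a pair. Over coding transcripts alone it was -2.14 ± 0.26 and was called, with Slc2a1 at 18.6 ± 1.59 TPM. To be called, the log2 ratio of TPM + 1 had to keep its sign across the libraries and to be larger than both 2 SD and 1; the added 1 understates ratios of low genes. Slc2a8 (8.68, 8.31 and 3.20 TPM) and Slc2a6 (4.30, 2.53 and 4.47 TPM), which encode transporters of intracellular membranes, were far lower. The order of those 2 low genes changed between libraries.

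Hexokinase, the enzyme that traps glucose in the cell, was nearly all Hk1. It stood at 158, 131 and 135 TPM, 97.7% ± 0.10 of hexokinase TPM. Hk2, the inducible form known from muscle and from glycolytic tumour and activated cells, stood at 2.15, 1.57 and 1.84 TPM, with 104, 88 and 71 counts behind these values. Hk3, known from myeloid cells, stood at 1.29, 1.49 and 1.38 TPM. The log2 ratio of Hk1 to Hk2 was 5.64 ± 0.05 and that of Hk1 to Hk3 was 5.89 ± 0.20, both called, whereas Hk2 and Hk3 were not told apart (0.25 ± 0.21). Of 6 macrophage or monocyte markers, 4 were detected, with a sum of 171 to 173 TPM that was mostly Cst3; their part in the Hk3 level was not tested.

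The next steps each had a clear leading gene. Gpi1, the isomerase between glucose 6-phosphate and fructose 6-phosphate, stood at 283, 256 and 280 TPM. Among the phosphofructokinases, which catalyse the committed step, Pfkp (platelet form) led at 215, 180 and 211 TPM with 68.6% ± 1.62 of the family. Pfkl (liver form) followed at 80.0 ± 9.84 TPM, and Pfkm (muscle form) stood at 12.0, 12.8 and 11.8 TPM. All 3 pairs were called, the nearest being Pfkl under Pfkp by a log2 ratio of -1.33 ± 0.11.

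The bifunctional enzymes that set fructose 2,6-bisphosphate, an activator of phosphofructokinase, had no such leader. Pfkfb3, whose enzyme strongly favours synthesis of that activator, stood at 13.7, 12.7 and 9.49 TPM and Pfkfb4 at 8.94, 8.59 and 9.16 TPM. Pfkfb1 stood at 5.82 ± 0.76 TPM, and Pfkfb2 was lowest by mean at 6.13, 4.47 and 5.91 TPM. None of the 6 pairs among them was called, and in library 3 the levels of Pfkfb3 and Pfkfb4 were nearly equal.

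Aldolase, which splits the 6-carbon sugar, was Aldoa at 573, 541 and 599 TPM, 98.2% ± 0.06 of the pair with Aldoc. Aldoc, known from brain, stood at 11.1, 10.2 and 10.9 TPM. In the lower chain, Tpi1 (triose phosphate isomerase) stood at 107 ± 4.72 TPM, Pgk1 (phosphoglycerate kinase) at 133 ± 11.1 TPM and Pgam1 (phosphoglycerate mutase) at 110 ± 26.7 TPM. Gapdh, the dehydrogenase of the pathway, stood at 241, 255 and 295 TPM, below Ldha, Eno1, Pkm and Aldoa in every library; how far shared sequence touches this value is given further on.

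Enolase was Eno1 at 888, 881 and 955 TPM, 97.5% ± 0.35 of its family. Eno3, known from muscle, stood at 17.0 ± 1.31 TPM, and Eno2, known from neurons, at 6.95, 6.15 and 4.29 TPM. Markers of muscle (Ckm, Myh1, Acta1) summed to 0.12 to 0.19 TPM and none was detected. Of 3 brain markers, Syp reached 15.3, 10.7 and 8.33 TPM and the other two were near 0. All 3 enolase pairs were called, with Eno3 over Eno2 in each library.

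Pyruvate kinase and lactate dehydrogenase closed the chain at high levels. Pkm stood at 838, 709 and 763 TPM. Ldha, whose subunit favours lactate formation, stood at 1014, 888 and 1045 TPM and ranked 97 among protein-coding genes by mean TPM. Ldhb, the subunit known from heart and oxidative tissue, stood at 130, 99.7 and 131 TPM. Ldha made up 89.1% ± 0.67 of the pair, a log2 ratio of 3.03 ± 0.10 that was called.

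**Figure D2:**
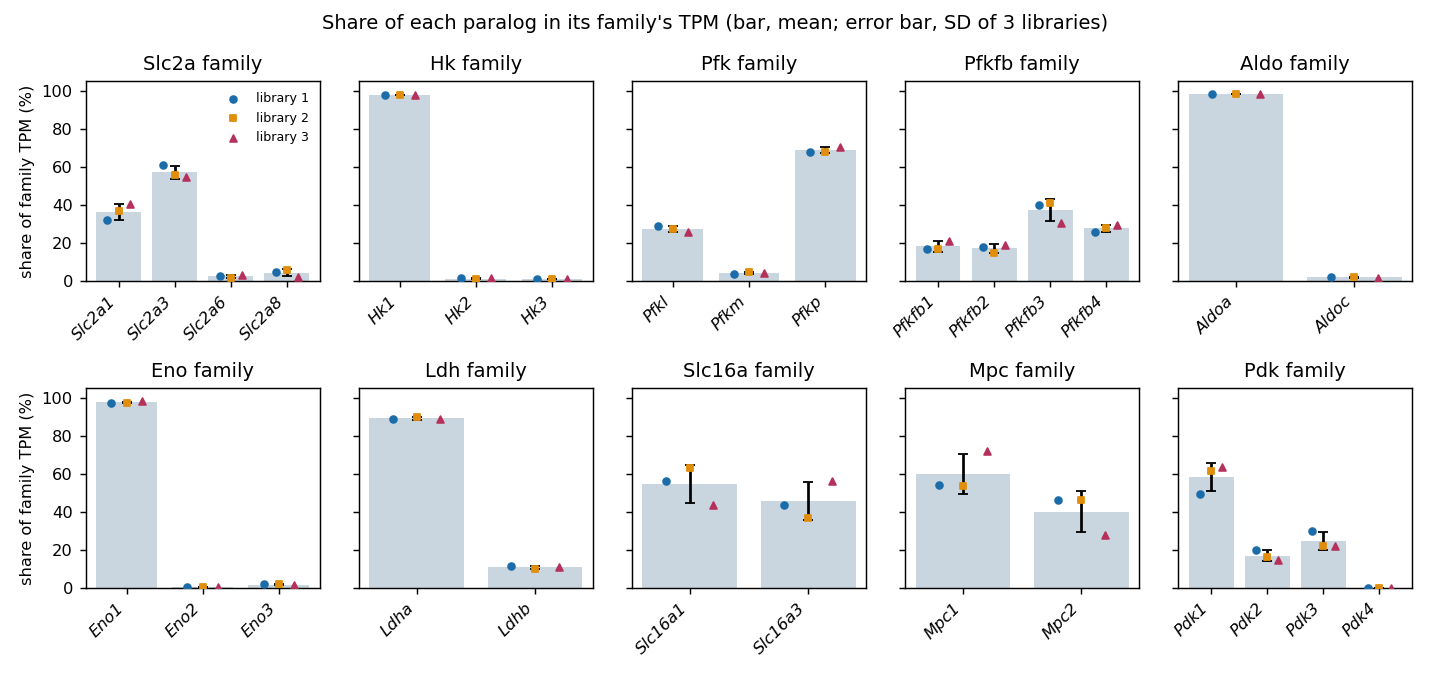
Share of each paralog in its family's TPM in percent (bars, mean; error bars, SD of 3 libraries; markers, libraries) for 10 families. Hk1, Aldoa and Eno1 each exceed 97%, the Pfkfb genes share their family without a leader, and in the Slc16a family the order of the genes turns in library 3.

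The lactate carriers were lower than both lactate dehydrogenase genes. Slc16a1, encoding MCT1, stood at 19.8, 17.8 and 6.75 TPM, and Slc16a3, encoding the exporter MCT4, at 15.3, 10.3 and 8.68 TPM. Slc16a1 was the higher of them in libraries 1 and 2 and the lower in library 3, and the pair was not called (log2 ratio 0.25 ± 0.53). Bsg, encoding basigin, the chaperone that brings both carriers to the cell surface, stood at 246, 206 and 77.1 TPM. Basigin exceeded Slc16a1 by a similar log2 ratio in every library, 3.57, 3.46 and 3.33. Emb, encoding embigin, a second carrier chaperone, stood at 135 ± 9.55 TPM.

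At the entry to mitochondria, Mpc1 and Mpc2 encode the subunits of the pyruvate carrier. Mpc1 stood at 145, 133 and 147 TPM and Mpc2 at 123, 115 and 57.1 TPM, so that the subunits lay near each other in libraries 1 and 2 and Mpc2 was lower in library 3. Over coding transcripts alone, Mpc1 (138 ± 7.92 TPM) exceeded Mpc2 (30.7 ± 12.5 TPM) by a log2 ratio of 2.22 ± 0.72. The E1 subunits of pyruvate dehydrogenase, Pdha1 (135 ± 10.4 TPM) and Pdhb (144 ± 4.84 TPM), differed by a log2 ratio of only -0.09 ± 0.15. Of the kinases that inhibit E1, Pdk1 stood at 50.2, 64.3 and 26.2 TPM, Pdk3 at 30.5, 23.0 and 9.10 TPM and Pdk2 at 20.4, 17.1 and 6.04 TPM. Pdk4, the kinase known to rise on fasting in muscle, heart and liver, had 1, 1 and 2 counts (0.02, 0.02 and 0.05 TPM), under the level of 3 counts, which is 0.067 to 0.073 TPM. Pdk1 led its family in each library with 58.2% ± 7.44 of TPM over all its transcripts, but not over coding transcripts alone, where Pdk3 was higher. Coding TPM was 9.27, 13.0 and 6.89 for Pdk1 and 30.3, 23.0 and 7.94 for Pdk3, and their log2 ratio of -0.86 ± 0.72 was not called. Over all transcripts, Pdk2 was under Pdk3 in each library by too little to be called (-0.50 ± 0.08). In the second gene table Pdk1 and Pdk3 had no steady order, with a log2 ratio of -0.06 ± 0.48 on counts per kilobase.

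The oxidative genes of the pentose phosphate pathway gave even values across the libraries. G6pdx, the enzyme that commits glucose 6-phosphate to this pathway, stood at 52.6, 52.0 and 53.6 TPM, and Pgd, which follows in the oxidative branch, at 67.5, 64.8 and 65.5 TPM. Tkt (200, 203 and 210 TPM) and Taldo1 (281, 270 and 295 TPM), the transketolase and transaldolase of the non-oxidative branch, were higher than both oxidative genes in every library over all transcripts. Over coding transcripts alone this held for Taldo1, while Tkt (29.9, 32.8 and 30.6 TPM) lay below G6pdx (48.8 ± 0.74 TPM) and Pgd (58.7 ± 2.64 TPM). Over all transcripts, neither G6pdx with Pgd nor Tkt with Taldo1 was called. Over coding transcripts alone, Tkt with Taldo1 was called, at a log2 ratio of -2.64 ± 0.18, and G6pdx with Pgd was not.

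In all, 19 of 30 paralog pairs were called. The 11 others were Slc2a1 with Slc2a3, Slc2a6 with Slc2a8, Hk2 with Hk3, the 6 Pfkfb pairs, Slc16a1 with Slc16a3, and Pdk2 with Pdk3. An exact paired test over 3 libraries cannot go below p = 0.25, so none was run.

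Differences between libraries beyond counting noise were tested gene by gene with a chi-square statistic for Poisson counts, scaled with edgeR's TMM factors and adjusted (Benjamini-Hochberg) over 14877 genes whose mean count reached 10. Of 41 genes tested, 32 differed at an adjusted p of 0.05. Of all tested genes 63.9% did (70.1% of protein-coding genes), so the count is near the background at this filter. Without library 3, 16 of the 41 differed, against 30.2% of all genes. The 9 that did not differ were Pgd, G6pdx, Pfkm, Aldoc, Pfkfb4, Pfkfb1, Pfkfb2, Hk2 and Hk3. For G6pdx and Pgd the highest scaled count was 1.01 times the lowest (adjusted p = 0.97 and 0.93 in the chi-square test with edgeR's scaling). Of all 41 tested genes, the 9 that did not differ included, 31 stayed within 1.5-fold over the libraries. The share of all genes within that range was not worked out.

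Library 3 held the large departures. Compared with the mean of the other libraries on the log2 scale, it was at least 2-fold lower, and different by the test, in 6 of the 41 genes: Pdk3 (3.20-fold), Pdk2 (3.17-fold), Bsg (2.86-fold), Slc16a1 (2.73-fold), Slc2a8 (2.61-fold) and Mpc2 (2.02-fold). The background for such a fall was 13.1% of tested genes, so this count too is near what all genes gave. The count was 5 with total-count scaling, where Mpc2 missed the fold (a log2 deviation of -0.93) and the share of all genes was 11.6%. It was 5 in the second gene table, where that share was 16.0%. There Bsg (-0.92) and Mpc2 (-0.82) missed the fold and Pdk1 met it. Without library 2, Mpc2 also missed it (-0.98), and without library 1 Pdk1 met it (shares of all genes 13.4% and 13.5%). None of the 41 was at least 2-fold higher there (2.34% of all genes). Pdk1 was 1.83-fold lower. Among the 32 genes that differed, whatever the size, library 3 was the lowest of the libraries in 14 of the 41 tested, against 29.8% of all tested genes. It was the highest in 14, a count for which the share over all genes was not worked out. The median deviation of library 3 over the 41 genes was -0.003 on the log2 scale, beside 0.019 over all tested genes.

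The place of the 6 genes along the pathway is a description with no test, and their number was near the background of 13.1% of tested genes. The 6 genes were 4 of the 9 transport genes and 2 of the 5 tested genes of pyruvate dehydrogenase and its kinases. They included 0 of the 23 enzymes from hexokinase to lactate dehydrogenase and 0 of the 4 pentose phosphate genes. Of the other transport genes, Slc2a1, Slc2a6 and Mpc1 deviated in library 3 by 0.12, 0.31 and 0.15, and Slc2a3 and Slc16a3 by -0.21 and -0.41. Across those 23 enzymes the ratio of the highest to the lowest scaled count reached at most 1.60, in Pgam1. Summed TPM of the 23 enzymes was 4885, 4441 and 4903 in libraries 1 to 3. That of the 9 transport genes was 729, 627 and 445 and that of the 4 kinases 101, 104 and 41.4. Within the transport sum, Bsg stood at 246, 206 and 77.1 TPM and Mpc2 at 123, 115 and 57.1 TPM.

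**Figure D3:**
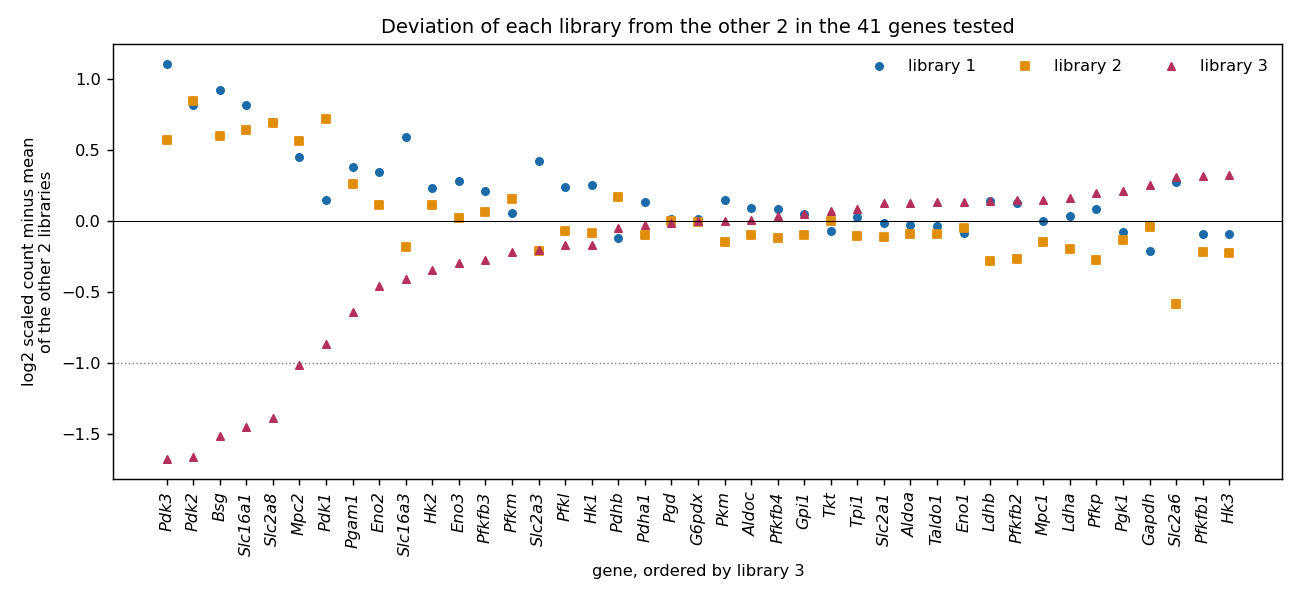
Log2 scaled count of each library minus the mean of the other 2 libraries, for the 41 genes tested, ordered by library 3; the dotted line marks a 2-fold fall. Library 3 lies at or below that line for Pdk3, Pdk2, Bsg, Slc16a1, Slc2a8 and Mpc2, and most other genes lie within 0.5 of 0 in every library.

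Base composition moved with the departure of library 3. Local GC content, taken as the richest window of 200 bases in a gene's leading transcript, ran against the deviation of library 3 with a Spearman rho of -0.54 over 9990 genes and -0.39 over 37 of the genes described here (those with at least 100 counts). Points share the same 3 libraries, so these are descriptions. Pdk3 (76.0%) and Slc2a8 (75.5%) had the highest local GC of the 42, but Mpc2 had the lowest (46.5%). Next in local GC, Pdk1 (74.0%), Pfkfb3 (74.0%) and Pfkl (72.0%) deviated in library 3 by -0.87, -0.28 and -0.17. Pkm (72.0%) and Eno1 (71.0%) deviated in library 3 by 0.00 and 0.14. Pgam1, which came next after Eno1, deviated by -0.64. The Mpc2 value is that of Mpc2-203, a processed transcript of 493 bases that led by TPM. By expected counts it held 44.1% ± 4.84 of Mpc2, and coding transcripts held 44.6% ± 4.21. The local GC of those coding transcripts is not given here, so the corrected Mpc2 value below holds for Mpc2-203 only. With the trend on local GC removed from each library, a correction added after the data were seen, the log2 deviation went from -1.39 to -0.54 for Slc2a8 and from -1.68 to -0.86 for Pdk3, and it was -1.55 for Bsg, -1.47 for Pdk2, -1.45 for Slc16a1 and -1.23 for Mpc2. That left 4 of the genes at a 2-fold fall, where the share of all genes was 6.04%. With the trend on GC content of the whole transcript removed instead, Slc2a8 stood at -0.44 and no longer differed between libraries (chi-square test with edgeR's scaling, adjusted p = 0.065). The other 5 kept their 2-fold fall, where the share of all genes was 10.2%.

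Several of these genes have many processed pseudogenes, which share reads with them. Stretches of 50 bases of each leading transcript were looked up in all other GENCODE M21 transcripts, and 21 of the 42 genes had only stretches of their own. Gapdh had 9.57% unique stretches, and 66.2% of its stretches occurred in at least 20 other genes; 213 pseudogenes shared at least 1 stretch with it. Unique shares were 27.8% for Eno1, 32.0% for Pgk1, 58.2% for Mpc1, 58.5% for Pgam1, 65.6% for Pkm and 69.7% for Pdhb. The levels of these 7 genes depend on how reads were assigned among copies and are uncertain to that extent. Pseudogenes that shared a stretch with Gapdh summed to 56.7, 61.1 and 67.0 TPM, and the 3 that shared one with Gpi1 to 63.9, 86.5 and 90.8 TPM. Of the named near-copies, those with a mean of at least 1 TPM were Mpc1-ps at 36.2 ± 3.73 TPM, 25.6% of Mpc1, Eno1b at 21.3 ± 2.01 TPM, 2.35% of Eno1, and Pgk1-rs7 at 1.90, 8.82 and 11.5 TPM.

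The second gene table, with whole-number counts on the older GENCODE M4 release, gave far lower counts for the same genes. Gapdh had 52, 58 and 46 counts there, against 3198, 3092 and 3533 expected counts in the first table, or 1.59%. Pgam1 had 4, 2 and 3 counts against 2917, 2467 and 1627. Over 41 genes, the count in the second table as a percent of the first rose with the unique share (Spearman rho 0.79, a description over genes of the same libraries). High density moved with it too: over all genes the second table's median was 50.8% of the first where the first held 0.03 to 0.3 counts per base, and 5.58% where it held 10 to 30. Ldha, with 80.9% unique stretches, stood at 7.10%. In that table, the log2 ratios of Ldha to Ldhb (0.77) and Eno1 to Eno3 (0.43) no longer met the rule, and the first table's levels are the ones used here.

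**Figure D4:**
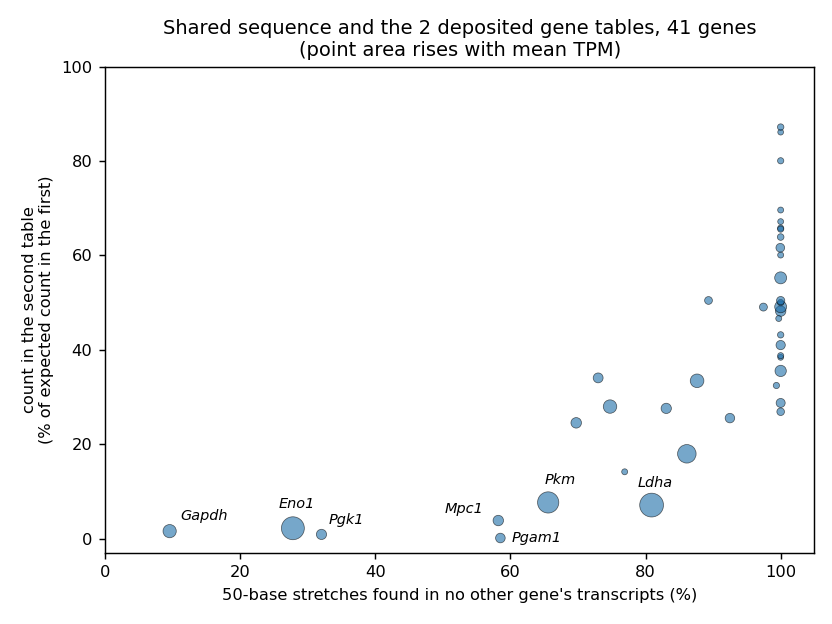
Count in the second gene table as a percent of the expected count in the first (vertical axis) against the percent of 50-base stretches found in no other gene's transcripts (horizontal axis), 1 point for each of 41 genes, with area rising with mean TPM. Gapdh, Eno1, Pgk1, Mpc1 and Pgam1 lie below 5% on the vertical axis, and genes with only unique stretches lie between 26.9% and 87.2%.

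A gene's TPM also counted transcripts that the annotation does not give as coding. Ldha was 97.7% ± 0.40 a single coding transcript, Ldha-202. Slc2a1 was 67.3% ± 0.92 a transcript annotated for nonsense-mediated decay, and Tkt 66.7% ± 1.83 a processed transcript without a coding frame. Coding transcripts held 15.2% ± 0.83 of Tkt TPM, 21.7% ± 4.10 of Pdk1 TPM, 30.9% ± 4.14 of Mpc2 TPM and 39.1% ± 1.46 of Gpi1 TPM. For these genes the gene-level TPM therefore stands well above that of the coding transcripts. Among the genes low in library 3, Pdk3 was 95.5% ± 7.18 its coding transcript Pdk3-201, and Bsg divided between the coding transcripts Bsg-205 (51.2%, 65.1% and 75.2%) and Bsg-202 (45.1%, 33.2% and 21.8%), with the balance different in each library.

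Glycolytic genes are textbook targets of HIF1 and MYC, whose binding motifs are ACGTG (core of the hypoxia response element, with GCGTG as its other form) and CACGTG (the E-box). The promoters of Ldha, Slc16a1 and Pdk1 are shown because these genes stand for lactate formation, its export and the brake on pyruvate oxidation. Each is the 250 bases before the RefSeq start on GRCm38.p6, on the plus strand, at chr7:46845554-46845803 for Ldha, chr3:104638414-104638663 for Slc16a1 and chr2:71872974-71873223 for Pdk1. Capitals mark matches to ACGTG or GCGTG on either strand, extended over CACGTG, which holds ACGTG on both strands and so counts as 2 of them.
Ldha: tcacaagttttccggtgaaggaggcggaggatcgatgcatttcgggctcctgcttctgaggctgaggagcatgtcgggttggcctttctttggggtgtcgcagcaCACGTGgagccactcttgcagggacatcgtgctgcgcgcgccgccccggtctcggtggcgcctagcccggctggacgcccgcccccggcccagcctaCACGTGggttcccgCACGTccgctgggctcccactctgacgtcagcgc
Slc16a1: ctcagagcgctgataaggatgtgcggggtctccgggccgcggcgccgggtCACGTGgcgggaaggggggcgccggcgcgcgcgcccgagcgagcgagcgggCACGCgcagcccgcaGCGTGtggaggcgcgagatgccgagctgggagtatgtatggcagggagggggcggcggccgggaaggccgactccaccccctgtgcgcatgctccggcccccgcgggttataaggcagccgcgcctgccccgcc
Pdk1: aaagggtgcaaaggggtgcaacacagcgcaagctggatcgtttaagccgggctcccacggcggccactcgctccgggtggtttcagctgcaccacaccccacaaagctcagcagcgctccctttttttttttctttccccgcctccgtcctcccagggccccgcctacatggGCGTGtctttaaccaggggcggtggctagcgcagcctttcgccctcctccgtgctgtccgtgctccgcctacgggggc

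Ldha held 5 ACGTG matches, of which 4 lie in 2 CACGTG sequences, Slc16a1 held 2 ACGTG matches in 1 CACGTG and 2 GCGTG matches, and Pdk1 held 1 GCGTG. A promoter entry was found for 40 of the 42 genes; Slc2a3 and Bsg had none. ACGTG was present in 14 of the 40 (35.0%) against 16.6% of all 32851 promoters, GCGTG in 26 (65.0%) against 28.2%, and CACGTG in 4 (10%) against 6.02%. The sets were not built alike. The 32851 are all entries, several for some genes and with no filter on expression. Each of the 40 gave 1 entry, the nearest to the start of its leading transcript. That entry was still 17941 bases away for Hk1, 16882 for Mpc2 and 8478 for Tkt. The promoters of these genes were also richer in GC, with a median of 61.4% against 52.4%. A match is a description of the letters in this window, not a bound site.

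Other genes of carbon metabolism were taken from a list of 52, of which 51 were measured and 29 detected. The highest were Txnip, an inhibitor of glucose uptake, at 995 ± 184 TPM, Mdh1, the cytosolic malate dehydrogenase, at 328 ± 14.8 TPM, Emb as given above, Dld, the E3 subunit shared by 2-oxoacid dehydrogenases, at 86.5 ± 8.61 TPM, and Pgm1, a phosphoglucomutase, at 46.6 ± 3.01 TPM. Txnip stood at 883, 895 and 1208 TPM, highest in library 3. No count was found in any library for Pklr, Pdha2 and Fbp2, which are known from liver, testis or muscle. Of 31 genes of the list that were tested, 25 differed between libraries (63.9% of all tested genes did), and in 6 library 3 was at least 2-fold lower (13.1% of all), among them Dlat, the E2 subunit of pyruvate dehydrogenase, at 39.4, 31.8 and 9.25 TPM.

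Of 15 regulators, 13 were detected, and Max (152 ± 38.6 TPM) and Myc (132 ± 39.6 TPM) followed the splicing factors named above. Of the 14 tested, 12 differed between libraries against a background of 63.9%, and in 2, Hif1a and Vhl, library 3 was at least 2-fold lower against a background of 13.1%; these were named after their values were seen. Hif1a, encoding the oxygen-regulated subunit of HIF1, stood at 153, 127 and 47.2 TPM. Its part in the levels of the genes above was not tested.

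The markers matched the label of the cells as regulatory T cells. The inflammation-experienced part of the label was not checked, since there was no marker list for it and no resting sample. All 6 T cell markers were detected, with a sum of 7487 to 8658 TPM, and all 5 regulatory T cell markers, with a sum of 1422 to 1754 TPM (Foxp3 at 77.6, 86.2 and 59.2 TPM). Markers of other cells were also present: 5 of 5 B cell markers summed to 411 to 424 TPM, mostly Cd74, and 5 of 6 erythroid markers to 1097 to 1752 TPM. None of 6 granulocyte markers and 1 of 4 platelet markers was detected, and Mpo and Elane were at 0. Erythroid markers were highest in library 3 and lowest in library 2; their part in the levels above was not tested. Depth was 20942759, 18402348 and 17494800 expected counts on annotated genes.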

How the data were processed

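PolyA-selected RNA of 1 group was measured in 3 libraries, grouped by the labels' technical replicate numbers. The authors deposited gene and transcript tables with expected counts, TPM, FPKM and the percent of a gene's TPM in each transcript, for GENCODE M21 on mm10 per the deposited text. A second deposited gene table has whole-number counts on GENCODE M4. The tables also hold the authors' posterior means and SDs of counts, a score not used in a result. Aligner, counter and counting rule: not given in the sources used here. Per the labels, RNA was sheared to a size range of 100 to 300.

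Members and lists were chosen with earlier results of these data known. Levels are TPM as deposited. Expected counts were rounded, and those whose mean reached 10 entered a Pearson chi-square test (2 degrees of freedom) with TMM factors from edgeR 4.0.16 and Benjamini-Hochberg adjustment at 0.05. Nothing says that the libraries came from separate animals, so p-values measure technical spread. Counts for 14877 genes were also simulated with Poisson noise alone and with changes in library 3 only. On these, the test called 0.0749% of unchanged genes, 64 of 100 genes changed 1.5-fold and 76 of 100 changed to 0.5. In the real data 63.9% of tested genes differed, so these rates need not hold there. Alternatives were DESeq2 1.42.0 size factors, total-count scaling, filters, FPKM, another pseudocount, the second table, GC trends (the one on local GC added after seeing the data, as was TPM of coding transcripts alone) and leaving out each library. Values were given in every library for the 10 highest members, the highest and lowest of each paralog family, members under 1 TPM and the 6 that departed most in 1 library. The floor of 3 counts covers counting error only. Python 3.11.15, scipy 1.17.1 and statsmodels 0.14.6 were used. Results for some listed genes are left out. Protein sequences were not used here.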

Additional observations from a re-analysis of the deposited data

How the results depend on the processing

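The count of genes differing between libraries was 32 and lay between 23 and 32 under other scalings, filters, GC trends and the second table; without 1 library it ran from 16 to 25, the lowest without library 3, where 2 libraries were compared and fewer of all genes differed. The median level of 70.2 TPM became 45.5 as FPKM, another unit, and 65.6 to 73.9 without 1 library. The Pkm M2 share of 91.1% became 92.7% by expected counts, which weight transcripts by length, and 93.4% over coding transcripts alone; leaving out 1 library gave 91.0% to 91.5%. The median log2 deviation of library 3 was -0.003 and became 0.117 with the trend on transcript GC removed, beside 0.081 over all genes; the cause was not tested. The 19 called paralog pairs were 18 to 25 under the alternatives, 22 without library 3. Pdk1 over Pdk3 lost its order on the second table's counts (mean log2 ratio -0.058, with the sign differing between libraries), and Pdk1 over Pdk2 (0.76), Ldha over Ldhb (0.77) and Eno1 over Eno3 (0.43) fell under the rule's size there; the cause was not tested. Over coding transcripts alone, an alternative added after the data were seen, 19 pairs were called, but Pdk1 over Pdk3 (-0.86) and Pdk1 over Pdk2 (-0.25) turned and were not called, since most Pdk1 TPM lies in transcripts without a coding frame; Slc2a1 under Slc2a3 (-2.14) and Pfkfb1 under Pfkfb3 (-1.08) were called. The number of genes detected was 41, 40 by FPKM and 35 at 5 TPM. No paired analysis was possible because the libraries form 1 group. Depth limits what can be said of Pdk4, with 1, 1 and 2 counts, and of Hk3, with 37, 31 and 40.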
